A study of Mus musculus with 9 samples.

Results

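The olfactory receptor genes of the mouse autosomes were described here by their CpG methylation in the nucleus accumbens, a part of the ventral striatum. They were taken by name: every autosomal protein-coding gene of the GRCm38 assembly whose symbol starts with Olfr, which gave 1104 genes of 20665 on 16 chromosomes. The rule itself uses names alone and no measured value. Each gene was measured over its body and 1 kb on each side, and a level was given to the 804 genes (72.8%) that had 3 or more CpGs and 20 or more calls in each of 9 libraries. Among the other protein-coding genes 18993 of 19561 (97.1%) passed the same minimum.

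The study sequenced bisulfite-treated DNA from the nucleus accumbens of male C57BL/6J mice, 8 weeks old, in a social defeat model in which a mouse meets an aggressive CD1 male on each of 10 days. Its libraries fall into a Control group (n = 5, numbered 2, 3, 4, 5 and 8) and a Susceptible group (n = 4, numbered 2, 3, 6 and 7), and the labels put the same defeat protocol beside all 9 without saying how Control mice were kept. Susceptible is the usual name for mice that avoid social contact after defeat. Punches of frozen tissue hold neurons and glia together, so a level is an average over cell types, and a level cannot be told apart from a share of cells that carry it. The labels do not say that each library came from 1 mouse, so the p-values measure the spread between these libraries.

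Olfactory receptors are the odorant-binding, G protein-coupled receptors of sensory neurons in the nose, and they form one of the largest gene families of the mouse. Most of them have a coding sequence in a single exon and lie in long arrays of related genes, among which pseudogenes are common. Each olfactory sensory neuron uses a single receptor allele, and in most other tissues, the brain included, the family is largely silent. Methylation of CpGs is the usual state of the mouse genome, whereas CpG islands, the CpG-rich starts of many broadly used genes, are usually free of it.

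The DNA around the receptor genes' starts differs from that of other genes, and 5 start windows show how. RefSeq gives a window of 300 bases (250 before and 50 after the start, GRCm38.p6) for 938 of the receptor genes. Those of Olfr212 (chr6:116506266-116506565, plus strand) and Olfr750 (chr14:51071393-51071692, minus strand) are shown because they hold the most CpGs among them, 13 and 11. Olfr94 (chr17:37197917-37198216, minus strand) and Olfr95 (chr17:37211802-37212101, minus strand) are shown because they are the receptor genes with the lowest methylation. Adcy3 (chr12:4133147-4133446, plus strand), the adenylyl cyclase of olfactory signalling, is shown as a gene with an island at its start. Capitals mark each CG, the place where methylation was read, and all are written 5′ to 3′ along the gene.
Olfr212: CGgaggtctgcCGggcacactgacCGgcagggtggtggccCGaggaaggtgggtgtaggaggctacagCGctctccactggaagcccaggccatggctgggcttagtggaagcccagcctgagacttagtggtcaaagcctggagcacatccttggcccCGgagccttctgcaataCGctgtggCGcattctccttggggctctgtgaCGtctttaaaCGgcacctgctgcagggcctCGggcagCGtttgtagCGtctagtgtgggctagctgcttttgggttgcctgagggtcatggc
Olfr750: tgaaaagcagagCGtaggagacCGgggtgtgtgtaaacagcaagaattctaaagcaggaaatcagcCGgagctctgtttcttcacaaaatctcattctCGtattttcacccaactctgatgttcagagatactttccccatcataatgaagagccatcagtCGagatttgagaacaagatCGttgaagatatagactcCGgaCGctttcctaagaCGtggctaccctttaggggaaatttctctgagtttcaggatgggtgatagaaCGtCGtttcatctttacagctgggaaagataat
Olfr94: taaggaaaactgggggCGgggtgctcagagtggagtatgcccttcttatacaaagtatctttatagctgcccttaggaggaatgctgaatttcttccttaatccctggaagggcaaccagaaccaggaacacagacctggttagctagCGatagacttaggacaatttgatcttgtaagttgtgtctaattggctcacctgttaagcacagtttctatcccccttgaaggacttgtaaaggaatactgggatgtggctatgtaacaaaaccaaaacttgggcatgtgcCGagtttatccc
Olfr95: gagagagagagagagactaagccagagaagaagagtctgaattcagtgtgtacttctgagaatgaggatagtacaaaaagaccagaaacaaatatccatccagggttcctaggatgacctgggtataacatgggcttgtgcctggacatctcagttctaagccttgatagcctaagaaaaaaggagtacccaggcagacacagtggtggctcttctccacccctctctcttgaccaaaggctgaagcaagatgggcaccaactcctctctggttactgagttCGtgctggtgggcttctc
Adcy3: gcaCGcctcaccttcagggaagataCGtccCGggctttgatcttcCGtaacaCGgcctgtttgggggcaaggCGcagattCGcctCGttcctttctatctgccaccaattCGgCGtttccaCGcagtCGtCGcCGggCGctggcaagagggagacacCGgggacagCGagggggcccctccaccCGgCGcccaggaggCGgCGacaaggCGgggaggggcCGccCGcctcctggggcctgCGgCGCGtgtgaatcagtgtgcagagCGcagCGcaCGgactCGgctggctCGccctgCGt

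The 13 CpGs of the Olfr212 window read between 87.9 and 99.6% methylated over all calls. In the Olfr750 window the 11 CpGs read between 65.3 and 96.4%. The 33 CpGs of the Adcy3 window read between 0 and 8.89%. Over all calls, the pair of receptor windows richest in CpGs was therefore mostly methylated at every CpG, and the enzyme's window at almost none. Single libraries ran as low as 27.3% at a CpG of Olfr750, and as high as 76.5% at a CpG of Adcy3. At 1 CpG of Olfr750 there were only 20 calls, from 2 libraries. The start windows of Olfr94 and Olfr95 hold 3 CpGs, at 66.7 to 92.6%, and 1 CpG, at 45.2%.

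The median receptor window held 1 CpG, and that of other genes 15. No CpG at all was found in 316 receptor windows (33.7%), against 3.22% of the other genes' windows. Their median GC content was 35.0%, and that of the other genes 57.7%. These windows are poor in CpGs, and for many the window's position is set by the coding sequence: in 680 of 938 (72.5%) the RefSeq start is the start codon itself, against 5.17% of other genes, so the true start of transcription may lie upstream.

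Short motifs, some of them of factors tied to receptor gene choice, were searched on both strands of the same windows. TAATTA, a core of homeodomain sites such as those of Lhx2, occurred in 176 of 938 (18.8%), against 4.62% of the windows of all genes. TCCC followed after any 2 bases by GGGA, the core of the sites of Ebf factors, occurred in 5 (0.533%), against 0.948%. TATAAA, which is not a site of those factors, occurred in 386 (41.2%), against 13.5%, and a match of it can share bases with one of TAATTA. Both words are AT-rich, as the receptor windows are, and the part of base composition in these shares was not tested. A match is only a run of letters, and no binding was measured.

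The libraries differed in depth and in the number of receptor genes they measured. Listed calls per library ran from 313475624 in Control 5 to 570984634 in Susceptible 2, and the files list only cytosines with 10 or more calls, so these are not full depths. Control 5 had the fewest calls, and 904 receptor genes reached the minimum in it, against 963 to 1037 in the others. Without it, 852 passed in each of the others. Listed calls did not order all libraries, since Control 8 had more than Control 2 (430312082 against 382904516) but 963 genes against 986. The 4 Susceptible libraries all exceeded the 5 Control libraries in listed calls, so total depth and group cannot be told apart. In receptor windows the calls overlapped. Control 3 had 400037 and Control 8 394964, against 375928 in Susceptible 3 and 386355 in Susceptible 7.

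Receptor genes carry few calls. Their median was 257 calls per library, against 7585 for other genes, and their median window held 13 listed CpGs. Of the 300 without a level, 162 fell short of the CpGs alone and 138 of both CpGs and calls. With 10 or more calls at each listed cytosine, no gene could fall short of calls alone. In 4 no CpG was listed in any library. Genes just inside the minimum, each with 3 CpGs in the poorest library, were Olfr1249 at 90.5% ± 8.61 in Control and 93.3% ± 4.04 in Susceptible, Olfr1245 at 69.2% ± 22.3 and 76.9% ± 8.65, and Olfr826 at 63.7% ± 18.5 and 55.5% ± 14.7. Just outside it, with 2 CpGs, were Olfr934 at 88.2% ± 15.9 and 92.9% ± 2.39, Olfr57 at 84.3% ± 8.35 and 87.6% ± 3.6, and Olfr1448 at 77.6% ± 13.0 and 78.7% ± 5.73 (SD, n = 5 and 4). Inside the minimum Olfr1245 and Olfr826 had lower group means than all 3 genes outside it, and Olfr1249 did not. The genes inside had fewer calls, 32 to 33 in their poorest library, against 72 to 99 in those outside. The SDs were larger in Control than in Susceptible in all 6 genes.

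The receptor genes were highly methylated as a family. Over the 9 libraries the median level of a gene was 85.6%, with quartiles of 81.3 and 89.2%, and the median over all genes tested was 69.8%. A mean level of 80% or more was found in 79.4% of the receptor genes and in 26.9% of the others. Only 3 receptor genes (0.373%) were under 50%, against 24.3% of other genes. Receptor genes without a level are not part of these shares.

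The same pattern was present in each library. All receptor windows together, with 19742 CpGs, read 84.8, 84.7, 84.3, 84.6 and 84.1% in Control 2, 3, 4, 5 and 8. They read 84.8, 84.8, 85.1 and 83.7% in Susceptible 2, 3, 6 and 7. The groups overlapped, and the lowest value, in Susceptible 7, came from the library that was also lowest over all autosomal CpGs, at 74.5%. Gene bodies lay above their 1 kb flanks in 9 of 9 libraries, by 1.63 to 2.96 percentage points, at 85.1% ± 0.247 in Control and 85.1% ± 0.590 in Susceptible for bodies. The flanks read 82.7% ± 0.526 and 82.8% ± 0.796.

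Single CpGs gave the same picture. Of 4961 CpGs in receptor windows listed in all 9 libraries, 76.9% were methylated at 80% or more and 1.37% under 20%. For other genes these shares were 61.3 and 18.6%. Nearby CpGs of one gene are not independent, so no test was made.

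Other chemosensory families also lay above the median of all genes tested. The trace amine-associated receptors, a small olfactory family (Taar), had a median of 88.5% over 15 of 15 genes with values. The bitter taste receptors (Tas2r) had 86.1% over 20 of 35. The vomeronasal receptors, which sense pheromones, had medians of 81.0% for Vmn1r over 96 of 230 genes and 77.9% for Vmn2r over 110 of 122. Olfr pseudogenes stood at 84.4% over 177 of 315, close to the 85.6% of the genes listed as protein-coding, which include Olfr367-ps, named as a pseudogene. All other protein-coding genes had a median of 68.6%, at a median of 12.6 listed CpGs per kb. Every family here lay above that level, so this is not particular to the odorant receptors. Genes outside the Olfr family, the other sensory families included, read 81.6% from 3 to 6 CpGs per kb, 78.2% below 3 and 75.1% from 6 to 12. The vomeronasal medians did not pass those of their densities, 3.78 per kb for Vmn1r and 2.69 for Vmn2r. Those of Taar (7.47 per kb) and Tas2r (5.42 per kb) did.

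Around the annotated gene start the receptor genes showed no trough like that of other genes. In 72.5% of them that start is the start codon, so starts of transcription farther upstream may not be lined up. In bins of 500 bp from 5 kb before to 5 kb after the start, Control means ran from 81.3 to 86.1%. The lowest was 1500 to 1000 bp upstream in Control, and 1000 to 500 bp upstream in Susceptible, at 81.7% ± 0.939. The highest was the first bin inside the gene, at 86.1% ± 0.933 in Control and 86.0% ± 0.742 in Susceptible. In other genes that bin read 7.96% ± 0.146 and 7.85% ± 0.266, and the bin 4500 to 5000 bp downstream read 74.4% ± 0.628 and 74.1% ± 1.03. The trough at the annotated start of most genes was thus missing from the averages of the family.

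**Figure D1:**
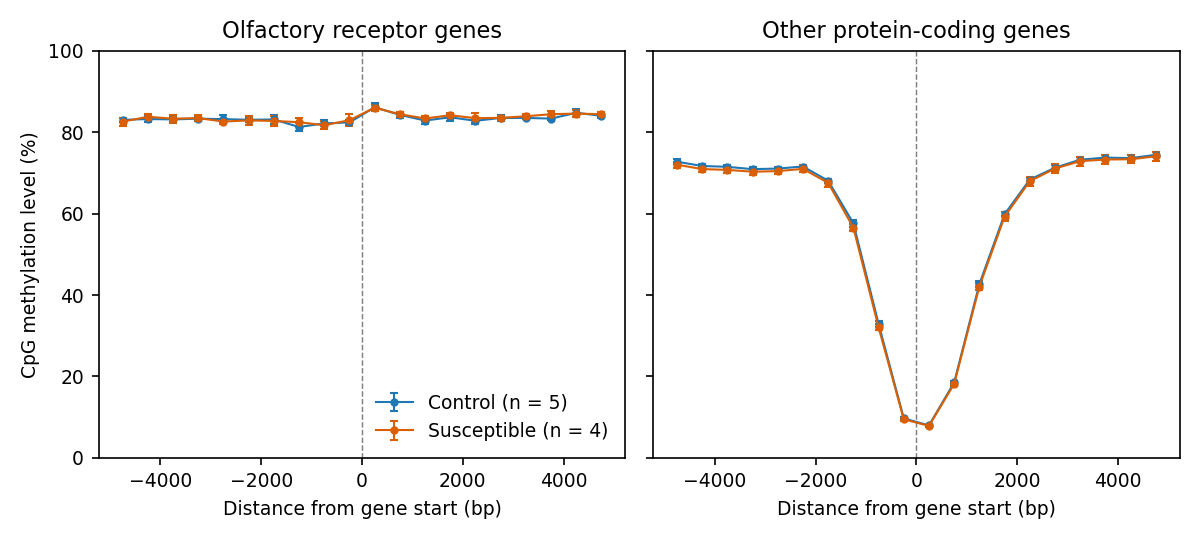
CpG methylation level (y axis, %) in bins of 500 bp by distance from the gene start (x axis, bp) for olfactory receptor genes (left) and other protein-coding genes (right); points are group means and bars the SD over libraries, Control n = 5 and Susceptible n = 4. Receptor genes stay above 80% throughout, and other genes fall to 7.96% just after the start in Control.

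This was also true of receptor start windows with more CpGs. Among windows with 20 or more calls in every library, those with 5 to 9 CpGs had a median of 87.7% in 21 receptor genes and 58.4% in 1730 other genes. With 10 to 19 CpGs the medians were 86.7% in 2 receptor genes and 1.65% in 3205 others. With 1 to 4 CpGs they were 84.3% in 48 and 81.3% in 1022. The gap between receptor genes and others was therefore small where CpGs were few and large where they were many. Only 39.4 to 55.7% of the CpGs in receptor start windows were listed in a library, against 66.8 to 92.4% in other genes, so the unlisted ones are unknown.

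Density across the whole gene gave opposite trends in the receptor genes and the rest. Under 3 listed CpGs per kb, 113 receptor genes had a median of 81.1%, and 385 other genes 78.2%. From 3 to 6 per kb the medians were 85.0% in 452 and 81.6% in 1965. From 6 to 12 per kb they were 87.9% in 201 and 75.1% in 6530. From 12 to 24 per kb they were 89.9% in 37 and 64.5% in 8164. More CpGs went with more methylation in the receptor genes and with less in other genes from 3 per kb upward. Calls rise with density, and receptor genes with 500 or more calls in the poorest library also had a higher median, 88.2% in 102, than the 40 with 20 up to 50 calls, 82.7%. The part of depth in the trend was not tested.

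**Figure D2:**
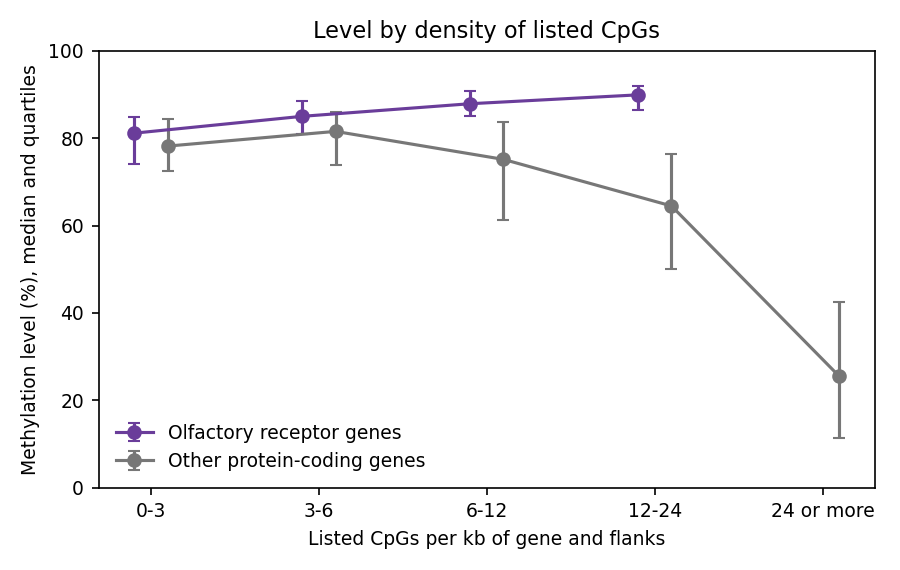
Median methylation level (y axis, %) with quartiles as bars by density of listed CpGs in the gene and its flanks (x axis, CpGs per kb) for receptor genes and other protein-coding genes, over the mean of 9 libraries; bins with under 20 genes are not drawn. From the bin of 3 to 6 per kb to that of 12 to 24 the receptor line climbs from 85.0 to 89.9% and the other line falls from 81.6 to 64.5%; below 3 per kb both are lower, at 81.1 and 78.2%.

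Only 1 receptor gene had 24 or more CpGs per kb, and it broke the trend. Olfr94 (chromosome 17, 37196806 to 37197966, minus strand) had 33.9 listed CpGs per kb and the lowest level of the family. It read 15.3, 18.8, 13.0, 10.8 and 11.2% in Control and 14.3, 12.4, 13.2 and 11.03% in Susceptible. The values overlapped throughout, with means of 13.8% ± 3.31 and 12.7% ± 1.36. The next densest, Olfr279 and Olfr283, neighbours on chromosome 15 with 23.5 and 21.6 CpGs per kb, read 91.4 and 93.4% over the 9 libraries.

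Olfr95 (chromosome 17, 37210913 to 37211851, minus strand), with 17.01 listed CpGs per kb, was second lowest. Its levels were 28.4, 30.8, 39.7, 35.9 and 29.7% in Control and 31.6, 31.05, 32.9 and 31.4% in Susceptible. The means of 32.9% ± 4.75 and 31.7% ± 0.791 differed by less than the Control SD. Both genes lie within the same array near the major histocompatibility complex.

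The lowest CpGs of these genes formed a stretch inside the gene, with some CpGs of intermediate level outside it. A low run was taken as 5 or more consecutive listed CpGs each under 20% over all calls, and it was present in 3 receptor genes (0.272%) and 14441 other genes (73.8%). These shares include genes without a level. Receptor genes had a median of 3.75 listed CpGs per kb and other genes 12.3. All receptor windows together held 19742 listed CpGs and those of other genes 9736627, so the room for a run differed by more than density. In Olfr94 it spanned 75 CpGs over 800 bp, within the gene at chromosome 17, 37196892 to 37197691, with the gene Ubd less than 1 kb away. There the Control libraries read 2.74, 1.88, 1.56, 1.01 and 1.53% and the Susceptible libraries 3.82, 3.58, 2.06 and 1.38%. The ranges overlapped, at 1.74% ± 0.637 against 2.71% ± 1.18. Its start window, outside the run, read 66.7 to 92.6% at its 3 CpGs.

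In Olfr95 the run covered 14 CpGs over 213 bp, also within the gene (37211422 to 37211634). The Control values were 11.7, 9.28, 12.8, 5.36 and 2.40%, and the Susceptible values 6.17, 14.5, 17.5 and 11.6%. The groups overlapped here as well, at 8.30% ± 4.36 and 12.5% ± 4.84. The third run, of 15 CpGs over 643 bp, crossed a gene end of Olfr1033 on chromosome 2 (86020196 to 86020838). It read 5.03% ± 5.32 in Control and 10.8% ± 9.44 in Susceptible, with as few as 74 calls in a library, while the whole window of Olfr1033 read 72.6%.

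**Figure D3:**
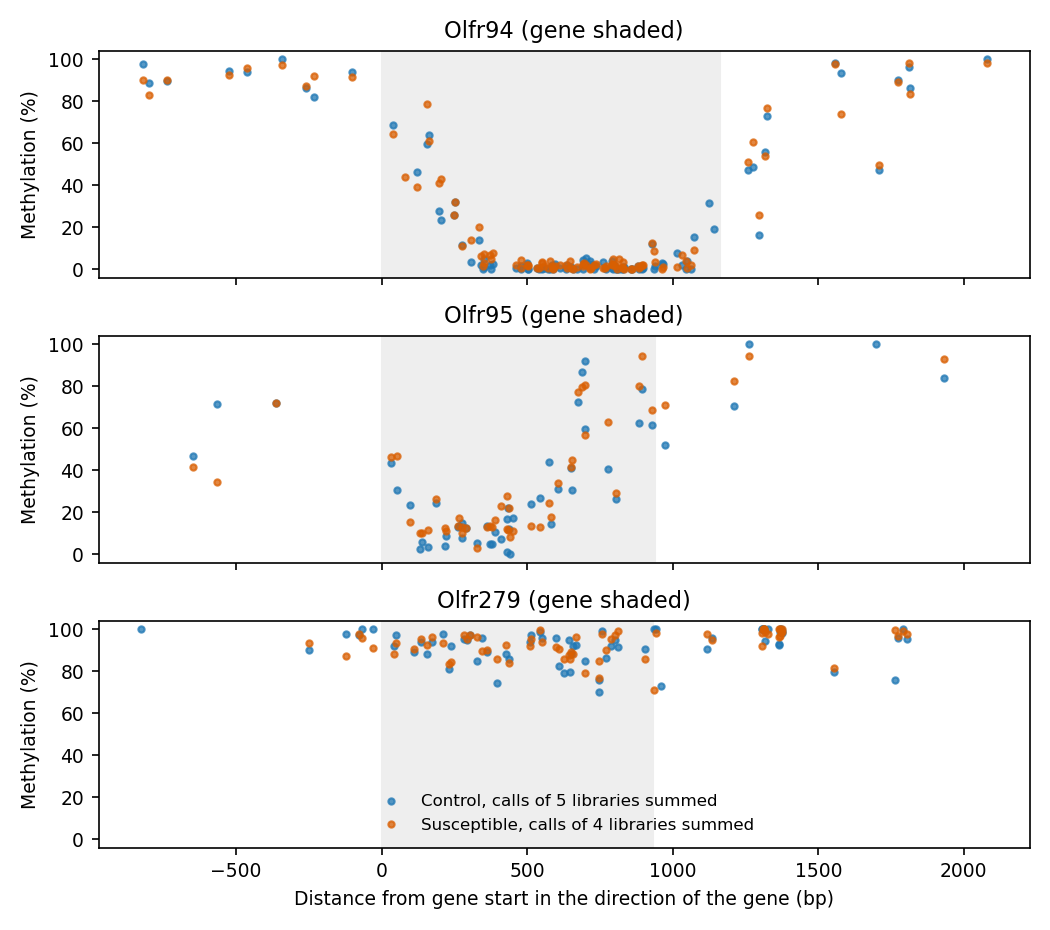
Methylation (y axis, %) of each CpG with 20 or more summed calls in a group along Olfr94, Olfr95 and, as a dense and methylated gene, Olfr279, by distance from the gene start in the direction of the gene (x axis, bp); shading marks the gene and colours the groups, with calls of the libraries of a group summed. The low stretch lies inside Olfr94 and Olfr95, some intermediate CpGs lie outside the shading, both groups follow the same course, and Olfr279 has no such stretch.

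The other receptor genes of lowest level were intermediate. Olfr452 on chromosome 6 read 69.5, 56.0, 47.7, 29.2 and 48.9% in Control and 45.5, 37.3, 51.2 and 59.6% in Susceptible, a wide spread within both groups. Olfr658 (chromosome 7) read 54.6% ± 7.12 and 48.7% ± 6.99. Olfr868 (chromosome 9) read 55.0% ± 12.6 and 52.5% ± 2.12. At the other end Olfr1196, Olfr1257 and Olfr1019 on chromosome 2, Olfr273 on chromosome 4 and Olfr874 on chromosome 9 had the highest levels, from 95.2 to 95.4%. In Olfr1196 the libraries ran from 91.8 to 100%. These 5 had 53 to 149 calls in their poorest library.

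Receptor genes were then grouped into clusters, with a new cluster where the gap to the next receptor gene passed 1 Mb. This gave 48 groups, of which 29 held 5 or more measured genes and 771 of the 804. Between-cluster differences made up 21.9% of the variance of the genes' levels, so most of it lay within clusters. Over these 29 clusters the summed level ran from 62.7 to 90.2%.

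The largest cluster by genes, on chromosome 2 from Olfr987 to Olfr1274, had values for 119 of 222 genes and read 86.0% ± 1.02 in Control and 86.4% ± 0.71 in Susceptible. On chromosome 7 the array from Olfr543 to Olfr692, which holds the class I receptors and surrounds the beta-globin genes, read 86.5% ± 0.681 and 86.9% ± 0.900 over 119 of 126 genes. The class II array farther along the same chromosome, from Olfr693 to Olfr519, read 82.2% ± 1.10 and 83.3% ± 0.831 over 50 of 67. The highest of the clusters with 5 or more measured genes, on chromosome 1 from Olfr16 to Olfr220, read 90.02% ± 0.987 and 90.4% ± 0.983 over 19 of 19. The largest array and the class I array differed from each other by less than the SD of the former in Control, while the class II array lay below both and the chromosome 1 array above both by more than any of these SDs. Within each of the 4 the groups overlapped.

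The lowest cluster, on chromosome 17 from Olfr90 to Olfr136, read 63.8% ± 2.71 in Control and 61.3% ± 1.23 in Susceptible over 39 of 46 genes. That value rested on Olfr94 and Olfr95, which bring many of its CpGs. Without them the other 37 genes read 82.5% ± 0.483 and 82.8% ± 0.179, and the direction between groups turned. Among clusters with 5 or more measured genes, the next lowest were chromosome 16 from Olfr164 to Olfr171 at 77.6%, chromosome 11 from Olfr20 to Olfr412 at 77.7% and chromosome 2 from Olfr338 to Olfr368 at 78.9%.

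Sequence between the genes of a cluster was close to the genes themselves. It read 83.6% ± 0.156 in Control and 83.7% ± 0.688 in Susceptible, and the Olfr pseudogenes in the clusters read 84.8% ± 0.985 and 84.7% ± 0.565. Protein-coding genes of other families inside the same clusters read 68.3% ± 0.778 and 67.3% ± 0.635, lower than the receptor genes in every library. High methylation was thus shared by receptor genes, their pseudogenes and the space between, but not by the other genes among them.

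In the comparison of groups, 16 of 29 clusters were higher in Susceptible and 13 lower, by -2.45 to 2.41 percentage points. In none did the groups fail to overlap, and in 26 the difference was under the larger of the group SDs. The largest difference was the lower Susceptible mean of the chromosome 17 cluster, -2.45 points, which became 0.351 without Olfr94 and Olfr95 and was under the Control SD. In 3 clusters the difference passed the larger SD, and in all 3 Susceptible was higher. The cluster on chromosome 2 from Olfr1275 to Olfr1318 went from 80.05% ± 1.94 to 82.5% ± 1.63. The small cluster on chromosome 6 from Olfr211 to Olfr215 read 87.4% ± 1.04 and 88.8% ± 0.763, and the class II array on chromosome 7 from Olfr693 to Olfr519 differed by 1.12 points against an SD of 1.10.

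**Figure D4:**
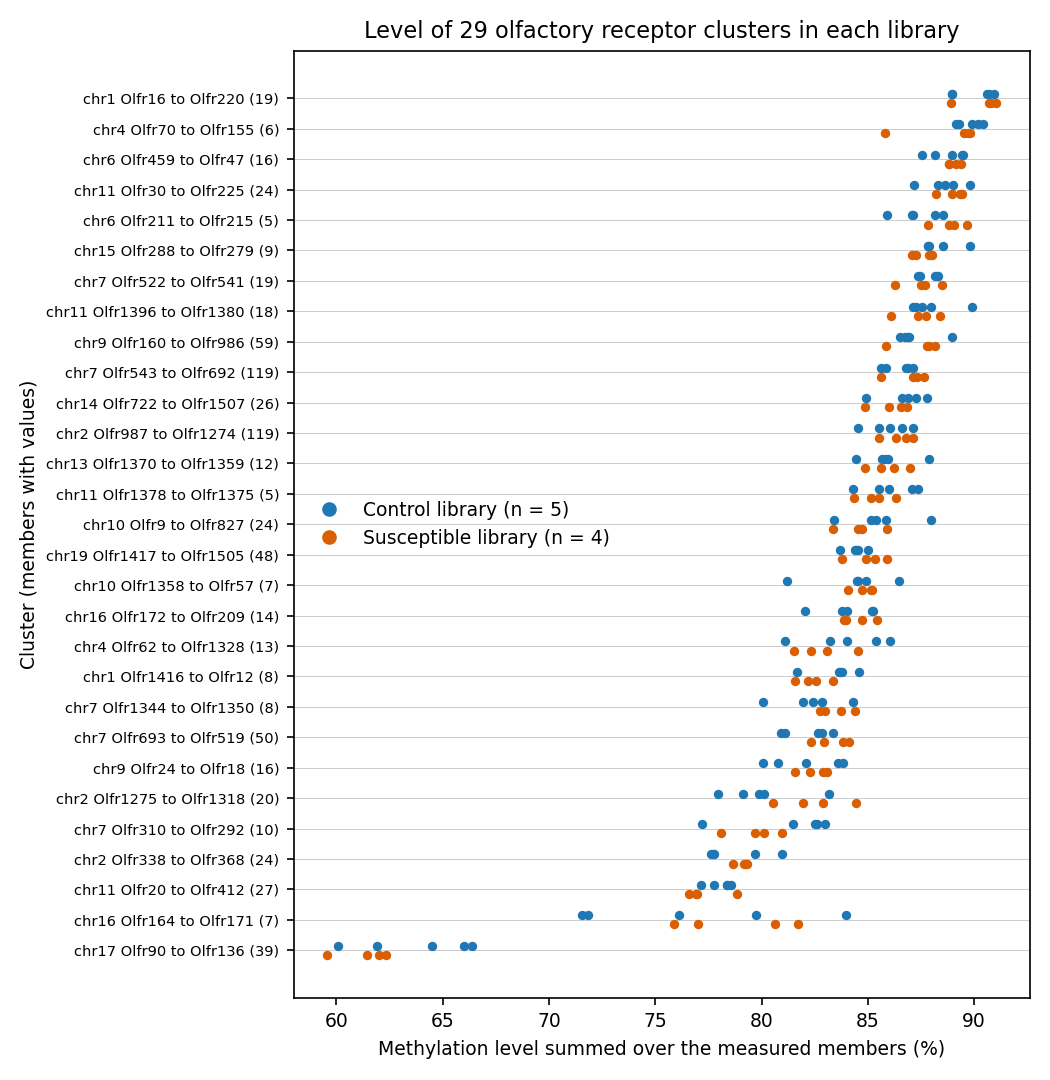
Methylation level summed over the measured receptor genes of each cluster (x axis, %, from 58 to 93 and not from 0) for the 29 clusters with 5 or more measured genes (y axis, in order of level, with the number of measured genes in brackets); each point is 1 library. Blue Control and orange Susceptible points overlap in every cluster, and chromosome 17 stands lowest.

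No receptor gene passed the test between groups. In the quasi-binomial model moderated with limma and adjusted by the Benjamini-Hochberg method over all 19797 genes, 0 of 804 receptor genes had an adjusted p under 0.05, and 0 of all genes (0%). The smallest adjusted p of a receptor gene was 0.884. At an unadjusted p under 0.05 there were 4 receptor genes (0.498%), against 5.56% of all genes. Of them 3 were higher in Susceptible (background 1.47%) and 1 lower (background 4.09%).

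The low count depends on how the spread was estimated. Receptor genes had a median dispersion of 5.99, against 27.2 in other genes, and the model draws every gene toward one common value. With a common value that follows the number of calls, chosen after seeing the data, 30 receptor genes (3.73%) had an unadjusted p under 0.05, against 5.49% of all genes. Of them 22 (2.74%) were higher in Susceptible, against 1.48% of all genes, and 8 (0.995%) lower, against 4.01%. With limma on logit levels there were 44 (5.47%), against 4.62% of all genes, with 29 (3.61%) higher against 1.29% and 15 (1.87%) lower against 3.33%. With no moderation there were 28 (3.48%), against 5.04%, with 20 (2.49%) higher against 1.56% and 8 (0.995%) lower against 3.48%. The smallest adjusted p of a receptor gene was 0.890 with the first of these fits and 0.945 with limma, so neither called one, and over all alternatives it ran from 0.714 to 0.9997. In both directions together the receptor shares lay at or under those of all genes except with limma, where 5.47% stood beside 4.62%. Among higher genes the receptor share lay above that of all genes in these 3 of 20 alternative fits, and below it in the other 17 and in the reported fit, all of which draw dispersions toward one common value. Among lower genes it lay below in all 20 and in the reported fit. These differences between shares were not tested.

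The median difference, Susceptible minus Control, was 0.154 percentage points over the receptor genes, with 411 higher and 393 lower. Over all genes tested it was -0.467. Without Susceptible 7 the median was -0.0862 over all genes and 0.478 over receptor genes. With equal weight per CpG it turned to 0.0877 over all genes, beside 0.106 over receptor genes. The receptor median turned to -0.0121 without Control 5, to -0.00620 without Control 8 and to -0.110 without Susceptible 6. A difference of 10 points or more was found in 21 receptor genes (2.61%), against 0.455% of all genes, and 16 of them (1.99%) were higher, against 0.217%. All 21 had under 100 calls in their poorest library. From 50 up to 100 calls the share was 7.44% of 215 receptor genes and 10.2% of 186 others, and from 20 up to 50 calls 12.5% of 40 and 16.7% of 36. Within these depths the receptor share was thus no higher than that of other genes. The median SD among Control libraries was 5.91 points in receptor genes and 2.79 in others, but from 50 up to 100 calls in the poorest library it was 8.64 and 8.75, and from 200 up to 500 calls 4.47 and 4.76. Among Susceptible libraries the receptor median SD was 3.15. These list more calls in total, though not all do in receptor windows, and the part of depth was not tested.

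**Figure D5:**
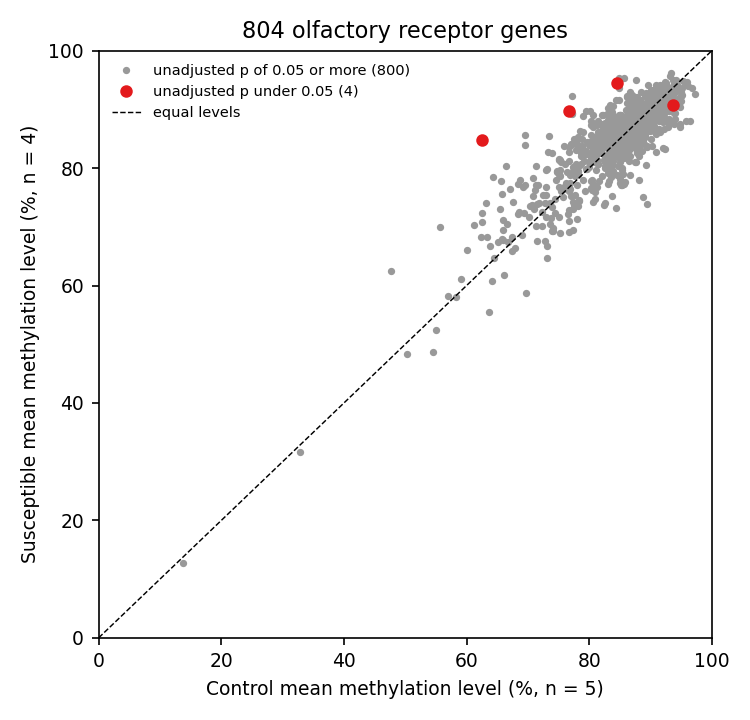
Mean methylation level in Susceptible libraries (y axis, %, n = 4) against Control libraries (x axis, %, n = 5) for the 804 measured receptor genes; the dashed line marks equal levels and red points the 4 genes with an unadjusted p under 0.05. Most points gather along the line above 70%, and Olfr94 and Olfr95 lie far below the rest on the same line.

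The genes of smallest p are given with their values, and each missed the adjusted threshold. Olfr324 (chromosome 11, 58597345 to 58598466), with 60 CpGs the best covered of them, read 93.3, 92.6, 93.3, 95.3 and 94.1% in Control and 90.8, 91.2, 90.3 and 91.0% in Susceptible. All Susceptible values lay below all Control values. The difference was -2.91 points, from 93.7% ± 1.02 to 90.8% ± 0.393 (unadjusted p = 0.024, adjusted p = 0.884).

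Olfr482 (chromosome 7, 108094597 to 108095568) read 89.5, 86.4, 87.7, 82.5 and 76.5% in Control and 94.8, 96.9, 96.2 and 90% in Susceptible. Its groups did not overlap, with a difference of 9.97 points (unadjusted p = 0.0283, adjusted p = 0.884). Olfr476, in the same array at 107967399 to 107968331, read 77.7, 81.9, 73.5, 67.5 and 82.6% against 91.5, 86.3, 94.1 and 87.1%. It too was separated, by 13.1 points (unadjusted p = 0.0471, adjusted p = 0.889), over 8 CpGs and as few as 94 calls.

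Olfr1215 (chromosome 2, 89001348 to 89002290) had the largest difference of the measured receptor genes. It read 75.5, 57.9, 79.3, 48.5 and 51.3% in Control and 89.5, 74.0, 95.9 and 79.9% in Susceptible. Susceptible 3 lay below Control 2 and Control 4, so the groups overlapped, and the difference was 22.3 points between 62.5% ± 14.1 and 84.8% ± 9.79 (unadjusted p = 0.045, adjusted p = 0.884). Its poorest library had 66 calls. Olfr667 (chromosome 7) read 84.8% ± 8.12 and 93.6% ± 1.31, and its unadjusted p of 0.0548 missed even that limit.

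Groups that did not overlap were found in 11 receptor genes (1.37%), against 1.81% of all genes. Susceptible was higher in 6 (0.746%, against 0.450% of all genes) and lower in 5 (0.622%, against 1.36%). Beside Olfr482 and Olfr476, the higher ones were Olfr213 (83.1% ± 3.45 to 90.2% ± 2.67), Olfr629 (81.3% ± 3.96 to 87.4% ± 2.27), Olfr930 (77.2% ± 9.26 to 89.3% ± 1.94) and Olfr1377 (77.01% ± 6.21 to 83.9% ± 1.92). The lower ones beside Olfr324 were Olfr1120 (85.8% ± 2.01 to 77.7% ± 3.57), Olfr697 (88.1% ± 7.57 to 78.1% ± 2.94), and the neighbours Olfr401 (83.2% ± 4.39 to 77.3% ± 0.735) and Olfr406 (85.1% ± 2.07 to 81.1% ± 0.866) of 1 array on chromosome 11. These 11 were picked by their values, and their share in both directions together is near that of all genes. The differences by direction were not tested.

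The widest spread among Control libraries came from single libraries. Olfr512 on chromosome 7 read 69.0, 75.8, 72.7, 15.04 and 79.7% in Control and 70.4 to 75.4% in Susceptible. Olfr361 on chromosome 2 read 55.6, 79.0, 62.8, 10.8 and 69.9%, against 69.2 to 71.1%. In both the low value was Control 5. Olfr974 on chromosome 9 read 36.0% in Control 8 and 84.9 to 93.8% in the other Control libraries. These genes have 9, 9 and 15 listed CpGs.

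Receptors with a known ligand or a known use outside the nose were listed by name, and 11 of 12 had values; Olfr151 did not. Their levels ran from 73.4% in Olfr15 to 92.3% in Olfr160, the receptor M72 that binds acetophenone. Olfr2, the octanal receptor I7, read 82.2% ± 7.40 in Control and 89.1% ± 2.81 in Susceptible. Olfr16, known as MOR23 and also used in sperm, read 84.5% ± 8.20 and 84.9% ± 1.24. Olfr73, which binds eugenol, read 87.7% ± 12.8 and 81.0% ± 4.46, and Olfr17, the receptor P2 of tracing studies, 81.7% ± 13.4 and 85.2% ± 1.57. None of the 11 had an unadjusted p under 0.05, and the smallest was that of Olfr2, at 0.199 (adjusted p = 0.950).

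Receptors used outside the nose were highly methylated too, and they were not tested against the rest of the family. Olfr78, found in the carotid body and kidney vessels, read 83.1% ± 2.10 and 83.9% ± 1.16 over 110 CpGs. Olfr558, found in blood vessels, read 85.0% ± 1.73 and 84.9% ± 2.05. Olfr1393, found in the kidney tubule, read 86.1% ± 2.48 and 84.5% ± 0.979 over 306 CpGs. Olfr544, which binds azelaic acid, read 91.4% ± 2.08 and 91.5% ± 0.552, and its neighbour Olfr545 80.4% ± 4.10 and 84.5% ± 4.8. The group means of these 5 genes differed by less than the larger SD.

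The genes that serve the receptors were taken from a list of 24, and all had values. None passed the adjusted threshold, 1 of 24 was higher at an unadjusted p under 0.05, beside 1.47% of all genes, and 0 lower, beside 4.09%. That gene was Gnb1, a G protein beta subunit used in many cells, at 48.1% ± 1.76 in Control and 51.1% ± 2.01 in Susceptible (unadjusted p = 0.0293, adjusted p = 0.884). A low run was held by 20 of the 24, beside 73.8% of genes outside the receptor family. Among receptor genes, which have fewer listed CpGs, the share was 0.272%. Of 16 listed genes whose start window could be measured, 11 were under 20% in both groups.

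The 4 without a low run were Omp, Rtp1, Rtp2 and Stoml3. Omp, the olfactory marker protein, read 92.0% ± 1.02 and 91.7% ± 3.18. Rtp1 and Rtp2, which carry receptors to the membrane, read 92.2% ± 1.04 and 91.6% ± 0.371, and 86.2% ± 2.84 and 86.8% ± 0.996. Stoml3 read 88.1% ± 1.65 and 87.9% ± 1.45. Other genes of the olfactory neuron did hold one. Cnga4, a subunit of its cyclic nucleotide-gated channel, read 58.0% ± 3.20 and 57.5% ± 1.34 with a run of 75 CpGs. Its start window, with 3 CpGs, read 69.0% ± 15.7 and 75.8% ± 9.68, and where the run lies was not examined. The G protein gamma subunit gene Gng13 read 47.2% ± 3.96 and 43.9% ± 6.11 with a run of 49. Gnal, the stimulatory G protein alpha subunit of both olfactory neurons and striatum, read 50.9% ± 2.14 and 52.4% ± 3.22, and the transcription factor gene Lhx2 read 39.1% ± 2.22 and 37.9% ± 2.45.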

How the data were processed

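Whole-genome bisulfite libraries of 9 nucleus accumbens samples were used. Per the file headers, the authors' deposited files give for each cytosine of a CpG its coverage, a count of calls, and the percent of calls read as C. The submitters' processing notes name Picard, Bismark, Bowtie and the build mm10, with no role. Every listed cytosine has 10 or more calls. Repeated entries, 4 in Control 5 and 8 in Control 8, were counted once.

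Methylated calls (coverage times percent) were added over both strands, then over each gene and 1 kb each side, with RefSeq GRCm38.p6 bounds. All 252386 listed CpGs within RefSeq start windows fell on a CG, which checked build and strand. The 6 Olfr genes of the X chromosome were left out. Genes needed 3 CpGs and 20 calls in every library. A quasi-binomial logistic model per gene, with dispersion moderated by limma 3.58.1 in R 4.3.3 and kept at 1 or more, gave an F test of the group, adjusted over 19797 genes. It was tried on simulated data with differences planted only in genes of intermediate level. Recovery of differences in highly methylated genes was therefore not tried. No term for a batch entered, since the labels give none.

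Genes were named by rule: those past the threshold or, failing 5, the 5 of smallest p, the 5 lowest and highest levels, the 3 densest, the 3 of largest Control SD, those nearest the minimum and the listed known receptors. Genes of non-overlapping groups and Olfr1033 were added after their values were seen. The members and lists were chosen with earlier results of these data known. Alternatives were other minimums, CpGs listed in all libraries, equal weight per CpG, gene bodies alone, the deepest 1% of CpGs left out, other dispersions, limma on logit levels (prior count 0.5), total calls as a covariate, a replicate block, other cluster gaps and each library left out.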

Additional observations from a re-analysis of the deposited data

Results flagged for a closer look

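A single library lay far from the rest of its group in 12 of 146 groups of libraries examined. Chance flags about 1 in 20 groups that were not picked for their spread. That rate does not apply to Olfr512 and Olfr974, named for a large Control SD, or to Olfr930 and Olfr1377, named because their groups do not overlap. The gap between that library and its nearest neighbour took most of the group's range in each.

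Low Control libraries accounted for most of the genes. Control 5 read 15.04% in Olfr512 (next lowest 69.0%), 73.5% in Olfr545 (next 80.7%) and 66.2% in Olfr1377 (next 78.0%). Control 8 read 36.0% in Olfr974 (next 84.9%) and 60.7% in Olfr930 (next 80.7%). Control 4 read 84.7% in Olfr273 (next 96.3%). In Olfr279 Susceptible 2 read 91.0%, and the other 3 lay within 92.1 to 92.2%.

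Among clusters, Susceptible 7 was low on chromosome 1 from Olfr16 to Olfr220 (88.9%, next 90.7%), on chromosome 4 from Olfr70 to Olfr155 (85.8%, next 89.5%) and on chromosome 9 from Olfr160 to Olfr986 (85.8%, next 87.8%). In that last cluster Control 5 was high, at 89.0% against 86.9% for the next. Control 4 was low on chromosome 7 from Olfr310 to Olfr292 (77.2%, next 81.5%).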

How the results depend on the processing

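No receptor gene was called in any of the 20 other fits, and neither was any other gene tested. The count at an unadjusted p under 0.05, 4 in the reported fit, was 1 with a minimum of 10 CpGs and 200 calls (0.382% against 5.61%), 2 with CpGs listed in all 9 libraries (0.439% against 5.07%), 2 in gene bodies alone (0.326% against 4.98%), 28 with no moderation (3.48%, against 5.04% of all genes), 30 with a dispersion prior that follows calls (3.73% against 5.49%, chosen after seeing the data), 44 with limma on logit levels (5.47% against 4.62%), and 0 to 6 with a library left out (at most 0.746%, against 4.52 to 6.60%). It was 0 with a replicate block (libraries numbered 2 and 3, 3.91% of all genes) and, added later, 1 in those 4 libraries without it (0.124%, against 5.90% of all genes). Deviations from the group mean correlated at 0.0206 and -0.0349 between same-numbered libraries over 19797 genes. Between Control 2 and Susceptible 3 they correlated at 0.109, and between Control 3 and Susceptible 2 at 0.0056. The libraries were not treated as pairs.

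Non-overlapping groups, 11 as reported, numbered 4 with the stricter minimum (1.53% against 1.82%), 6 with equal weight per CpG (1.32% against 1.44%), 19 to 31 with a library left out (2.36 to 3.86%, against 3.04 to 4.32% of all genes) and 293 in the 4 libraries of the block (36.4% against 35.2%), where fewer libraries overlap less by construction. The median level of 85.6% was 86.2% in the block's libraries, 87.1% with the stricter minimum, 85.0% with 1 CpG and 1 call, 87.7% with CpGs in all libraries, 87.2% in bodies and 87.6% with equal weight. The median difference was also below 0 with the stricter minimum (-0.0466), CpGs in all libraries (-0.0417) and bodies (-0.0121), and 0.406 with the block.

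Among clusters of 5 or more measured genes, the gap between highest and lowest was 27.5 points. It was 37.1 with the stricter minimum, 36.3 with CpGs in all libraries, 34.7 in bodies and 31.7 with equal weight. Without Olfr94 and Olfr95 (also chosen after seeing the data) it was 12.6, and the chromosome 17 cluster reads 82.6%. For the other settings the cause was not tested. The 5 genes of smallest p kept their direction in every fit that measured them. Few CpGs and calls per receptor gene limit single-gene values.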
